A study of Mus musculus with 4 samples.

Results

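The mitochondrial ribosomal proteins were examined in bone marrow macrophages (BMMs) that were stimulated with RANKL in the presence of dimethyl itaconate (DI) or vehicle. Members were the genes of the deposited table whose symbol is Mrpl or Mrps followed by a digit, pseudogenes left out, which gave 77 of 34745 genes. All 77 passed the filter on low counts and were tested. In current ribosome naming 50 of them belong to the large subunit and 26 to the small subunit, with Mrps30 and Mrps18a counted in the large subunit. The remaining gene, Mrps36, is now known as a subunit of the 2-oxoglutarate dehydrogenase complex.

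The BMMs came from male wild-type C57BL/6 mice of 8 weeks, were kept without serum for 12 h and were then given RANKL (100 ng/mL) together with DI (RANKL+DI) or DMSO as its vehicle (RANKL+Veh) for 24 h. DI, a membrane-permeable ester of itaconate, is given at 20 mM in the sample labels and at 20 μM in the study's methods. Each group held 2 libraries of messenger RNA, and no culture without RANKL was included. The study describes its in vitro experiments in general as independent, with more biological repeats than the 2 libraries a group held here. The sample labels do not say whether the 2 libraries of a group came from separate mice or cultures. The p-values therefore measure only the spread between these libraries, which may be technical.

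Mitochondria keep a ribosome of their own, the mitoribosome, which translates the few mRNAs encoded in mitochondrial DNA, all of them for subunits of the respiratory chain and ATP synthase. Its small subunit binds the mRNA and reads codons, and its large subunit joins amino acids and carries the exit tunnel. All of its proteins are encoded in the nucleus and imported, some with counterparts in bacterial ribosomes and others found only in mitochondria. Macrophages and osteoclasts use its products for respiration, and osteoclasts are rich in mitochondria.

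Depth was between 16085692 and 19403480 counts per library. TMM factors, which adjust library sizes for composition, split by group, at 0.963 and 0.967 with RANKL+DI and 1.04 and 1.04 with RANKL+Veh. Without them the median log2 fold change (DI against vehicle) was -0.16 instead of -0.06 for the members. For all tested genes it was -0.10 instead of 0.00. Macrophage markers were abundant in every library, with a summed level of 28639 and 29434 CPM (counts scaled to the TMM-adjusted library size) with RANKL+DI and 23282 and 22438 with RANKL+Veh, and 5 of their 9 tested rows rose and 2 fell. Osteoclast markers summed to between 714 and 764 CPM, with Calcr, a marker of mature osteoclasts, at 0. Of the 8 tested osteoclast markers, 2 rose and 5 fell, with log2 fold changes (DI against vehicle) from -2.52 to 0.56 and a median of -0.51. The calls made up 87.5% of the tested osteoclast markers and 77.8% of the macrophage rows, beside 14.8% of all tested genes. The B cell, mast cell and erythroid lists each summed to 0.60 CPM or less, and Pax5 and Mcpt8 were at 0 in all 4 libraries. T and NK cell markers summed to 1.81 and 1.6 CPM with RANKL+DI and to 0.859 and 0.841 with RANKL+Veh, with Cd3e, Cd3g and Ncr1 at 0. Neutrophil markers reached 9.23 to 11.1 CPM with Ly6g at 0, and stromal markers 41.5 to 51.6 CPM with Lepr at 0. The part of these lists in the values of the members was not tested. In such bulk RNA, fewer cells of a type and less RNA per cell cannot be told apart.

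By the deposited FPKM, the members were at moderate and uneven levels. FPKM, which divides the count by depth and by a length per gene, had a median of 9.91 over the members. It ran from 1.87 for Mrps17 to 63.1 for Mrpl42, a 33.7-fold range. Of the 77 members, 59 lay above the median of all tested genes, and the median member stood at percentile 69.0 of them. The median was 7.63 FPKM for the small subunit and 11.6 FPKM for the large subunit. Mrpl42, a protein found only in mitochondrial ribosomes, stood at 60.3 ± 6.06 FPKM with RANKL+DI and 65.9 ± 1.30 FPKM with RANKL+Veh (SD, n = 2). Next came Mrpl34 at 33.5 ± 4.19 and 32.8 ± 1.09 FPKM and Mrpl32 at 30.9 ± 0.843 and 35.1 ± 0.481 FPKM (SD, n = 2), in the same order of groups. Mrpl34 and Mrpl32 have bacterial counterparts and overlapped in level, so that their order was within the spread. At the lower end Mrps17 (1.79 ± 0.224 and 1.96 ± 0.0247 FPKM), Mrps35 (1.67 ± 0.192 and 2.17 ± 0.00997 FPKM) and Mrps10 (1.67 ± 0.197 and 2.19 ± 0.0599 FPKM) did not separate from one another with RANKL+DI (SD, n = 2). These levels depend on the lengths implied by the deposited FPKM, which are not all transcript lengths. For Mrps17 the implied length was 13836 bases, longer than its whole locus (chr5:129715497-129722556). In CPM, which takes no account of length, Mrps17 had means of 25.7 with RANKL+DI and 26.1 with RANKL+Veh, and Mrpl32 24.6 and 26.1. The FPKM order of members therefore cannot be read as an order of abundance. FPKM also uses depth without the TMM factor, so its group differences are not the fitted changes. The lowest single count of any member was 33, for Mrpl53.

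**Figure D1:**
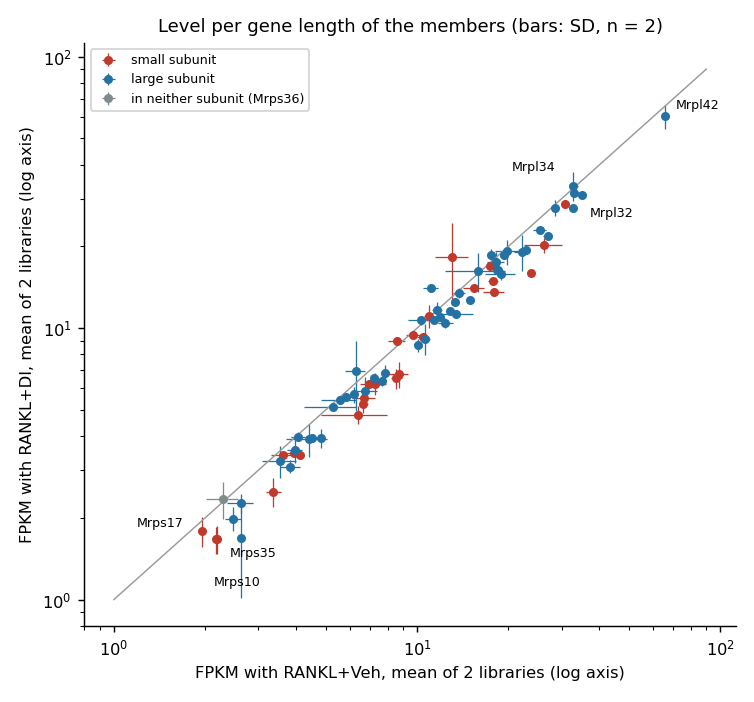
FPKM of the 77 members with RANKL+DI (y axis) against RANKL+Veh (x axis), both on log axes, as means of 2 libraries with bars of 1 SD. The line marks equal FPKM, which uses depth without the TMM factor. The points span from Mrps17 at 1.87 FPKM to Mrpl42 at 63.1 FPKM and lie close to the line.

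The question put to the members was whether their mRNA levels differed between RANKL+DI and RANKL+Veh. With edgeR's quasi-likelihood test and Benjamini-Hochberg adjustment over 12590 genes, Mrpl27 rose and Mrps6 fell at an adjusted p under 0.05, which is 2.60% of the members. Across all tested genes 14.8% were called, 7.14% higher and 7.7% lower with DI. At an unadjusted p under 0.05 there were 11 members, 2 higher and 9 lower, against 30% of all tested genes (14.4% higher and 15.6% lower). The fitted log2 fold change (DI against vehicle) was positive in 27 members and negative in 50, with a median of -0.06 against 0.00 for all tested genes. Both RANKL+DI libraries lay outside the RANKL+Veh range for 40 of the 77 members, 8 higher and 32 lower, beside 58.6% of all tested genes (29% higher and 29.6% lower).

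The changes of the members were small, and most were bounded well. The median standard error was 0.092 on the log2 scale, and the median SD between the 2 libraries of a group was 4.57% of the mean. For 69 of the 77 members the 95% interval of the fold change lay within 1.5-fold in either direction, which held for 64.1% of all tested genes, and for 75 it lay within 2-fold. The 8 members with an interval reaching beyond 1.5-fold, listed after their values were seen, were Mrps6, Mrpl27, Mrps9, Mrps12, Mrps16, Mrpl2, Mrps21 and Mrpl53. The last 2 reached beyond 2-fold, with intervals of 0.03 to 1.15 for Mrps21 and -1.28 to 0.18 for Mrpl53 on the log2 scale. The fitted change itself stayed within 1.2-fold for 66 members, and the largest of any member was 1.51-fold, for Mrps21.

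Summed over all 77 genes, the level was 2153 and 2216 CPM with RANKL+DI and 2316 and 2228 CPM with RANKL+Veh (2185 ± 44.6 against 2272 ± 62.6, SD, n = 2). The groups did not overlap, although the higher RANKL+DI library was within 1 SD of the lower RANKL+Veh library. An exact two-sided permutation test gave p = 0.333, the smallest that 2 libraries against 2 allow. A single library, RANKL+Veh replicate 1, held the highest level of 37 members. Without it the median log2 fold change of the members was -0.03, and it was -0.09 without RANKL+Veh replicate 2.

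**Figure D2:**
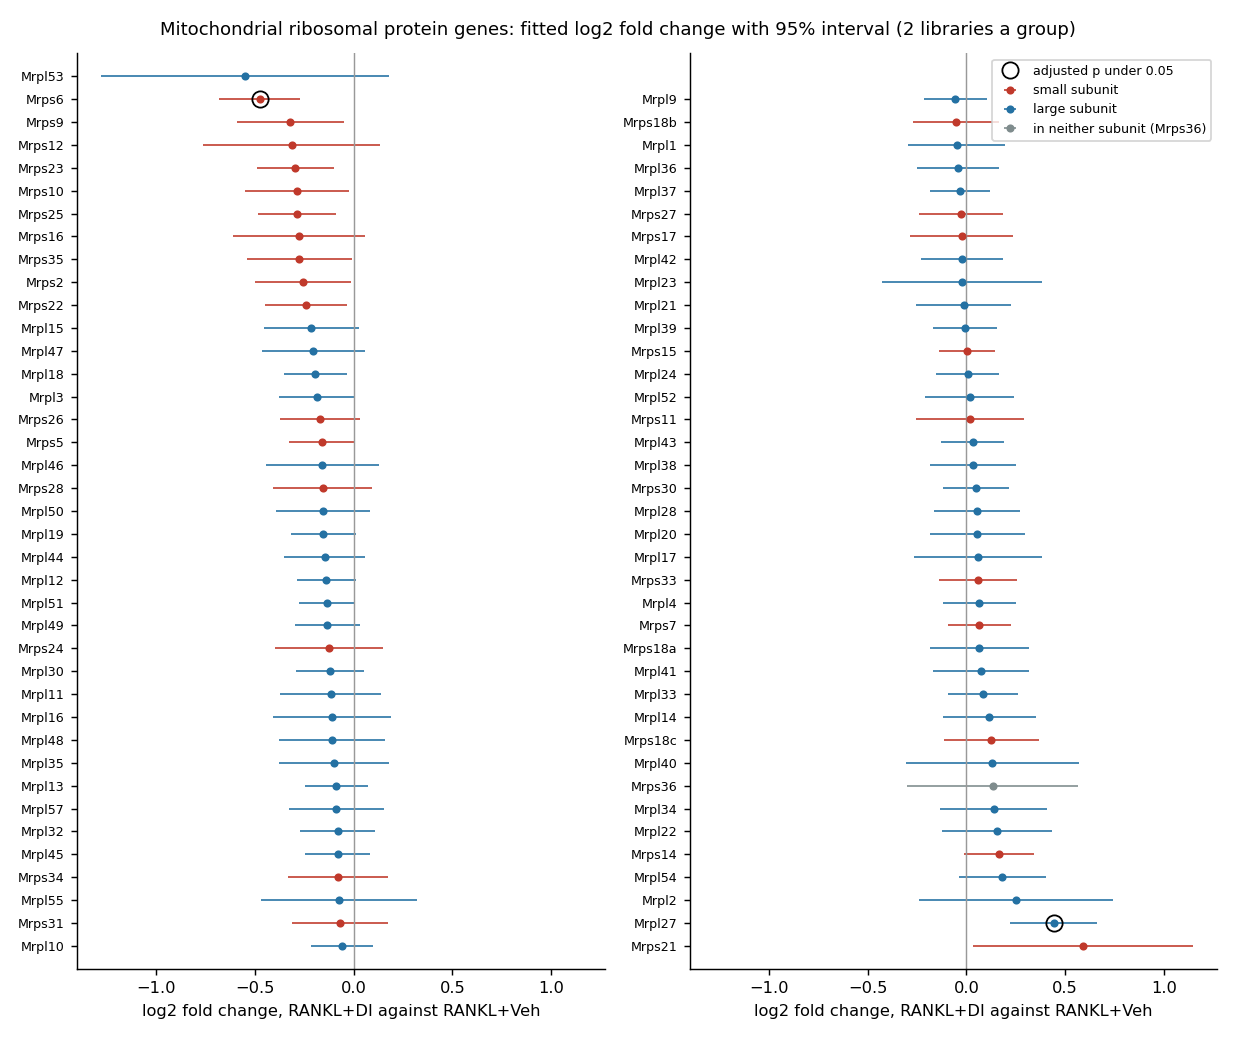
Fitted log2 fold change of each of the 77 members, RANKL+DI against RANKL+Veh (x axis), with 95% intervals from the edgeR fit (n = 2 libraries a group), ordered from lowest to highest and coloured by subunit. Circled points mark Mrps6 at -0.48 and Mrpl27 at 0.44, the members with an adjusted p under 0.05.

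Among the 26 small-subunit genes, 1 fell (Mrps6) and none rose at an adjusted p under 0.05, and 9 had an unadjusted p under 0.05, 8 of them lower, beside 14.8% of all tested genes called and 30% at an unadjusted p under 0.05. Their log2 fold changes were negative in 19 and positive in 7, with a median of -0.14. The 2 RANKL+DI libraries lay below both RANKL+Veh libraries for 13 of the 26 and above them for 3, beside 29.6% and 29% of all tested genes. Small-subunit genes made up 9 of the 10 lowest fold changes of all members and 3 of the 10 highest. This concentration is a description of the members, and no test of the subunits against each other was made over genes, which are not replicates.

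Mrps6, a small-subunit protein with a bacterial counterpart, was measured at 17.1 and 17.7 CPM with RANKL+DI and at 24.3 and 24.1 CPM with RANKL+Veh. Both RANKL+DI libraries were below both vehicle libraries, and the 2 libraries of each group lay close together. The gene fell by 0.48 on the log2 scale (SE 0.084, 95% interval -0.68 to -0.27, edgeR adjusted p = 0.0165). With RANKL+DI replicate 2 left out the adjusted p was 0.0449, and with any of the other 3 libraries left out it was between 0.0581 and 0.0637 at a fold change between -0.45 and -0.48.

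The lower fitted values outside Mrps6 did not pass the adjusted threshold. Mrps23, found only in mitochondrial ribosomes, stood at 31.3 and 31.8 CPM with RANKL+DI and 36.5 and 41.0 CPM with RANKL+Veh (log2 fold change -0.30, SE 0.080, adjusted p = 0.0619 in edgeR). Mrps25, another protein without a bacterial counterpart, gave 46.4 and 52.2 CPM against 61.8 and 58.2 CPM (-0.29, SE 0.080, adjusted p = 0.0688 in edgeR). Mrps9, which has a bacterial counterpart, gave 18.7 and 22.2 CPM against 24.5 and 26.6 CPM (-0.32, SE 0.11, adjusted p = 0.115 in edgeR). In all 3 genes the RANKL+DI libraries lay below both vehicle libraries. Without RANKL+DI replicate 2, Mrps25 reached an adjusted p of 0.0464 at -0.37. Mrps12, whose bacterial counterpart sits at the decoding centre, was 12.8 and 11.5 CPM with RANKL+DI and 17.7 and 12.4 CPM with RANKL+Veh, where RANKL+Veh replicate 1 stood apart from the rest. Its fitted change of -0.31 (SE 0.18, adjusted p = 0.313 in edgeR) was within that spread. The remaining small-subunit genes with an unadjusted p under 0.05 and a negative value, named after their values were seen, were Mrps10 (-0.29), Mrps35 (-0.28), Mrps2 (-0.26) and Mrps22 (-0.24), with adjusted p-values of 0.136, 0.156, 0.149 and 0.121 in the same edgeR fit.

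In the opposite direction, Mrps21, with a bacterial counterpart, had the highest fitted change of all members, with 23.2 and 37.3 CPM in the RANKL+DI libraries and 21.8 and 18.3 CPM in the RANKL+Veh libraries. RANKL+DI replicate 2 was far above replicate 1, which was close to the vehicle libraries. The log2 fold change was 0.59 (SE 0.23, adjusted p = 0.146 in edgeR), 0.89 without RANKL+DI replicate 1 (adjusted p = 0.0062) and 0.21 without RANKL+DI replicate 2 (adjusted p = 0.436). Mrps14, also with a bacterial counterpart, was at 38.9 and 39.5 CPM against 36.5 and 33.3 CPM (0.17, SE 0.073, adjusted p = 0.197).

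**Figure D3:**
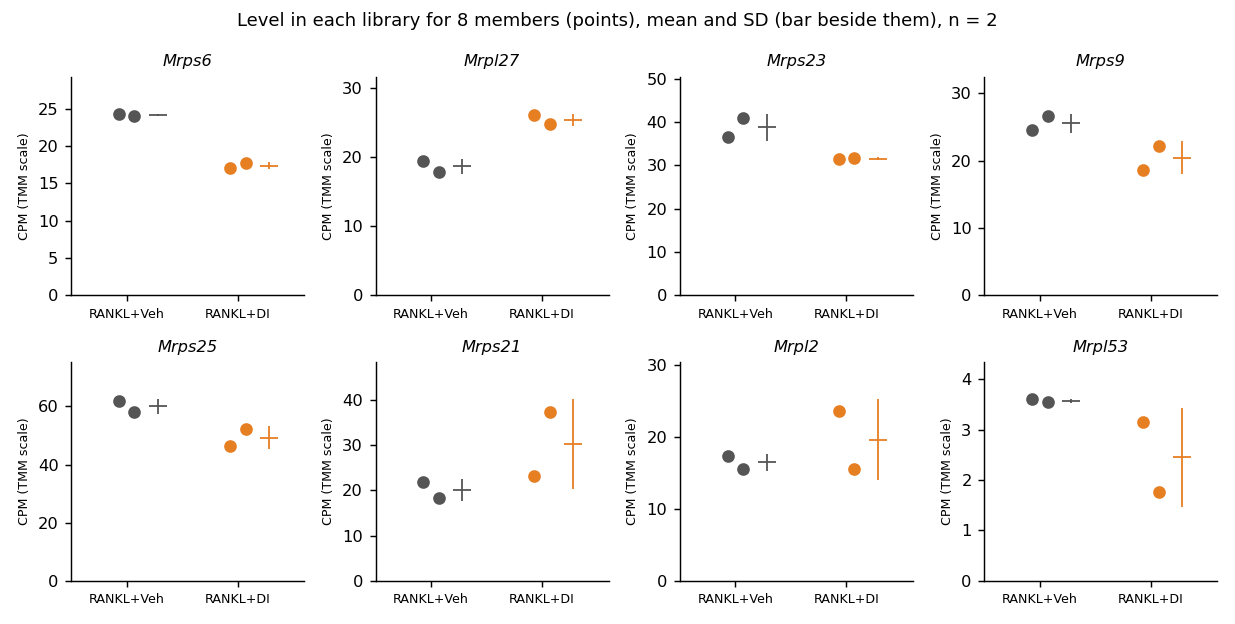
Level of 8 members in each library, in CPM on the TMM scale (y axes from 0), with points for single libraries and the mean ± SD of 2 libraries beside them. Mrps6 and Mrpl27 separate the groups with little spread, whereas Mrps21, Mrpl2 and Mrpl53 differ between their RANKL+DI libraries by as much as between groups.

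Among the 50 large-subunit genes, Mrpl27 rose and none fell at an adjusted p under 0.05, which is 2% beside 14.8% of all tested genes. At an unadjusted p under 0.05 there were 2, beside 30% of all tested genes. The median log2 fold change of the large subunit was -0.05, with 31 negative and 19 positive values. For 47 of the 50 the 95% interval lay within 1.5-fold. Mrpl27, whose bacterial counterpart lies next to the peptidyl transferase centre, was at 26.1 and 24.8 CPM with RANKL+DI and at 19.5 and 18.0 CPM with RANKL+Veh. Both RANKL+DI libraries were above both vehicle libraries. The log2 fold change was 0.44 (SE 0.090, 95% interval 0.22 to 0.66, edgeR adjusted p = 0.0262), or 1.36-fold. Each left-out library kept the direction (0.39 to 0.50) and moved the adjusted p to between 0.0512 and 0.0979.

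Mrpl53, a mitochondria-specific protein and the member with the fewest reads, was at 3.15 and 1.76 CPM with RANKL+DI and 3.60 and 3.54 CPM with RANKL+Veh, a fitted change of -0.55 (SE 0.30, adjusted p = 0.278 in edgeR). Mrpl2, whose bacterial counterpart is a core protein of the peptidyl transferase region, was at 23.7 and 15.6 CPM with RANKL+DI and 17.3 and 15.6 CPM with RANKL+Veh. Its groups overlapped, and its fitted change of 0.25 (adjusted p = 0.464) was -0.08 without RANKL+DI replicate 1 and 0.52 without RANKL+DI replicate 2, where the adjusted p was 0.0497. Mrpl54, a mitochondria-specific protein, was at 22.7 and 21.0 CPM against 19.0 and 19.5 CPM (0.18, SE 0.090, adjusted p = 0.241). Mrpl18, named after its values were seen as the large-subunit gene with a lower value at an unadjusted p under 0.05, was at 49.8 and 51.8 CPM against 56.6 and 59.6 CPM (-0.19, SE 0.064, adjusted p = 0.105).

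The 3 members with the highest FPKM did not pass the threshold. Mrpl42 had a log2 fold change of -0.02 (95% interval -0.23 to 0.18), Mrpl34 of 0.14 (-0.13 to 0.41) and Mrpl32 of -0.08 (-0.27 to 0.11). Of the 3 with the lowest FPKM, Mrps17 had -0.02 (-0.28 to 0.24). Mrps35 and Mrps10, given above, were among the lower values with groups that did not overlap. Mrps36, which is in neither subunit, was at 5.71 and 7.09 CPM with RANKL+DI and 6.33 and 5.34 CPM with RANKL+Veh, with overlapping groups.

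Summed by subunit, the small-subunit genes were at 660 and 685 CPM with RANKL+DI and 728 and 714 CPM with RANKL+Veh, and the large-subunit genes at 1488 and 1524 CPM against 1581 and 1508 CPM. The small-subunit groups did not overlap, and the large-subunit groups did. Of the total of both subunits, the small-subunit genes took 30.7% and 31.0% with RANKL+DI and 31.5% and 32.1% with RANKL+Veh (30.9% ± 0.213 against 31.8% ± 0.417, SD, n = 2). The exact two-sided permutation test over the 4 libraries gave p = 0.333, the smallest possible here.

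Members were also grouped by class, as having a bacterial counterpart or as mitochondria-specific. Mrps18a and Mrps18b were put in the mitochondria-specific class and Mrps18c, of the same symbol stem, in the other. The classes are therefore not a strict record of descent. The 46 members with a bacterial counterpart had a median log2 fold change of -0.06 and held both calls. The 30 mitochondria-specific members had a median of -0.07 and no call. Both shares called, 4.35% and 0%, lay below the 14.8% of all tested genes. Within the small subunit the median was -0.14 for the 16 genes with a bacterial counterpart and -0.12 for the 10 mitochondria-specific genes, of which 9 were negative. No test was made over these genes.

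Both called members share their locus with a neighbour that was itself called. Mrps6 (GRCm38, chr16:92058270-92112227, plus strand) starts 52 bases upstream of Slc5a3 (chr16:92058322-92087473, plus strand), the sodium/myo-inositol cotransporter gene, which lies within the span of Mrps6. Exons of Slc5a3 cover 10.4% of the Mrps6 exon bases on the same strand. Those of Gm49711, annotated as protein-coding but without a row in the deposited table, cover 19.9% on that strand. Slc5a3 was at 14.6 and 16.1 CPM with RANKL+DI and 32.8 and 30.7 CPM with RANKL+Veh, and it fell by 1.05 on the log2 scale (SE 0.093, edgeR adjusted p = 0.00209). How the counting assigned reads from shared exons is not given in the sources used here, and the part of Slc5a3 in the value of Mrps6 was not tested.

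Mrpl27 (chr11:94653767-94660089, plus strand) and Eme1 (chr11:94644996-94653964, minus strand), which encodes a subunit of a DNA repair endonuclease, have starts 197 bases apart in overlapping 5' ends. Exons of Eme1 cover 7.61% of the Mrpl27 exon bases. Eme1 was at 11.5 and 12.3 CPM with RANKL+DI and 17.8 and 16.4 CPM with RANKL+Veh, and it fell by 0.52 on the log2 scale (SE 0.11, edgeR adjusted p = 0.0256), in the direction opposite to Mrpl27. Reads of Mrpl27 could in addition fall on a processed pseudogene, Gm6304, that matches 59.1% of its transcript at 98.9% identity.

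The promoter windows of the 2 called members and of Mrps21, the member with the highest fitted change, are shown because their shared loci and motif content are described here. They are RefSeq windows of the GRCm38.p6 build, from 250 bases before to 50 bases after the annotated start, written 5' to 3' on the strand of the member. Capitals mark motif matches. In Mrpl27 they mark the ETS core CCGGAAGT at position -55, and in Mrps21 the NRF1 core at -91 and the core of the antioxidant response element, TGACNNNGC, read on the reverse strand, at -65. No match overlaps another in these windows. The Mrps6 window, which holds the annotated starts of both Mrps6 and Slc5a3, matched none of the 5 motifs searched, and the Mrpl27 window lies wholly within the span of Eme1.
Mrps6, chr16:92058086-92058385, plus strand: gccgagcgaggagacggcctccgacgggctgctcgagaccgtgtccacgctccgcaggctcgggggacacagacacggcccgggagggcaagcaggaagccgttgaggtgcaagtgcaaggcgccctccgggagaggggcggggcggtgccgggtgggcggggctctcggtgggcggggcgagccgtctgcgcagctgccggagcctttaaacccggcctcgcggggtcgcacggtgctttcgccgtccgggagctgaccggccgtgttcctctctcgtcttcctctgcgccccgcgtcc
Mrpl27, chr11:94653541-94653840, plus strand: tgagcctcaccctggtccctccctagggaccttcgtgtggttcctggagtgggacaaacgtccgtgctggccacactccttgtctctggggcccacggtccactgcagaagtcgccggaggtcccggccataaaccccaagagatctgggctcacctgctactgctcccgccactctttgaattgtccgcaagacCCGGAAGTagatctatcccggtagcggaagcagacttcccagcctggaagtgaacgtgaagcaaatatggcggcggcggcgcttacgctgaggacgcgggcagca
Mrps21, chr3:95871465-95871764, minus strand: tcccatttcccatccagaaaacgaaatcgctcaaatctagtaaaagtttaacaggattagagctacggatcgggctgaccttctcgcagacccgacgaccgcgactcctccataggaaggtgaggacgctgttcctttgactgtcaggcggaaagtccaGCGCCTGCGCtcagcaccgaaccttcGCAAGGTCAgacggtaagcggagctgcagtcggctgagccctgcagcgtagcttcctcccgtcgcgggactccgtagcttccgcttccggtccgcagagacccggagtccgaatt

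Motifs of factors known to act on nuclear genes of mitochondrial function, and of factors that respond to growth or electrophiles, were counted in the windows of the members. Searched on both strands, the NRF1 core, with the fifth base left free as in the Mrps21 match above, was present in 17.6% of 74 windows of 68 members, against 10.2% of the 11772 windows of tested genes and 4.6% of all 32851 RefSeq windows. The ETS core CCGGAAGT, read by GABP among other factors, was in 16.2% against 8.28% and 3.89%, and the YY1 core AAGATGGC in 16.2% against 4.55% and 2.75%. The E-box CACGTG, bound by MYC with MAX among others, was in 9.46% of the member windows, 10.2% of those of tested genes and 7.15% of all. The core of the antioxidant response element, TGACNNNGC, the motif of NRF2 with small MAF proteins, was in 17.6% against 14.5% and 12.4%. A match describes letters only, and 9 of the 77 members had no entry among the windows.

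Shared start regions were frequent among the members. A protein-coding gene began within 1000 bases on the opposite strand of 33 of the 77 members (42.9%), against 1985 of 11520 tested protein-coding genes (17.2%). The transcripts of the pair overlapped in 15 of the 33. Of the 30 partners that were tested, 1 rose and 5 fell, which is 20% beside the 14.8% of all tested genes, and their median log2 fold change was -0.08. Mrps11 and Mrpl46 are partners of each other.

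Apart from Eme1, given above beside Mrpl27, the called partners stood beside members that were not called. The fitted values of these members ran from -0.19 to 0.07. Ncapd2, a subunit of the condensin complex of mitotic chromosomes, was at 99.5 and 97.1 CPM with RANKL+DI and 146 and 146 CPM with RANKL+Veh, and fell by 0.57 (SE 0.044, edgeR adjusted p = 0.00139), while Mrpl51, which starts 100 bases away, had -0.13 (adjusted p = 0.186). Gga3, an adaptor of vesicle sorting, fell by 0.80 (adjusted p = 0.00553), beside 0.07 for Mrps7 (adjusted p = 0.558). Mtbp fell by 0.74 (adjusted p = 0.0308), beside -0.09 for Mrpl13 (adjusted p = 0.421). Tcp1, a subunit of the cytosolic chaperonin, fell by 0.23 (adjusted p = 0.0147) beside -0.19 for Mrpl18. Pnpla7, a lysophospholipase gene, rose by 0.29 (adjusted p = 0.0181) beside 0.07 for Mrpl41. These pairs share 5' regions and, in part, exon bases, and the difference between the genes of a pair was not tested.

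**Figure D4:**
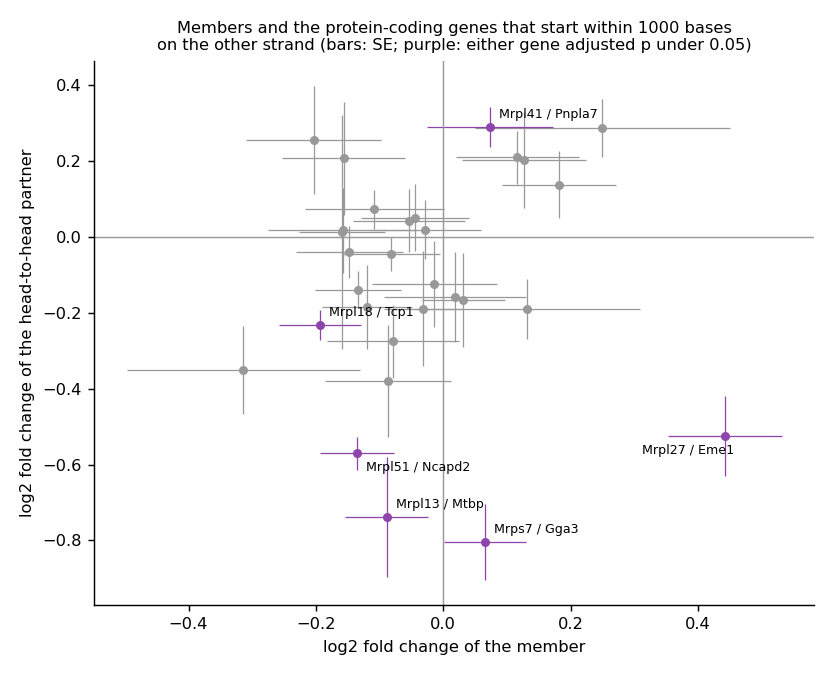
Log2 fold change (RANKL+DI against RANKL+Veh) of members (x axis) and of the 30 tested genes that start within 1000 bases on the opposite strand (y axis), with bars of 1 SE, drawn from fits over 2 libraries a group. Coloured pairs have an adjusted p under 0.05 in either gene, and Gga3, Mtbp and Ncapd2 lie far below 0 at member values between -0.13 and 0.07.

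Other genes of mitochondrial translation were read from the same fit. On 9 lists of mitoribosomal proteins under other symbols, assembly factors, translation factors, synthetases, RNA processing genes, mitochondrial transcripts, regulators and stress genes, 132 genes were tested. Of these, 2 rose and 4 fell, which is 4.55% beside 14.8% of all tested genes, and their median log2 fold change was -0.08. The 2 mitochondrially encoded ribosomal RNAs matched no symbol in the deposited table and so could not be analysed.

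Of 7 mitoribosomal proteins or partners that carry other symbols, 1 fell, which is 14.3% beside 14.8% of all tested genes. Ptcd3, a pentatricopeptide protein of the small subunit, was at 33.3 and 31.7 CPM with RANKL+DI and 38.8 and 41.9 CPM with RANKL+Veh, and fell by 0.31 (SE 0.073, edgeR adjusted p = 0.0409). Each left-out library kept its direction (-0.37 to -0.25) and moved its adjusted p to between 0.0742 and 0.169. Gadd45gip1, a large-subunit protein, had -0.25 (adjusted p = 0.121), and Oxa1l, the inner membrane insertase that receives the new chains, had -0.16 (adjusted p = 0.153). Dap3, a GTP-binding protein of the small subunit, had 0.08, Chchd1 0.01 and Aurkaip1 0.04, both small-subunit proteins, and Ict1, a peptidyl-tRNA hydrolase built into the large subunit, -0.13, with adjusted p-values from 0.535 to 0.949.

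Among 34 assembly and rRNA modification factors, 1 rose and none fell, which is 2.94% beside 14.8% of all tested genes, with a median of -0.08. Afg3l2, a subunit of the inner membrane protease that matures Mrpl32, was at 150 and 150 CPM with RANKL+DI and 110 and 107 CPM with RANKL+Veh, and rose by 0.47 (SE 0.043, edgeR adjusted p = 0.00224). Mrpl32 itself was at 25.2 and 24.1 CPM against 26.3 and 25.8 CPM. None of 16 translation factors (median -0.09) and none of 20 mitochondrial aminoacyl-tRNA synthetase genes (median -0.09) passed the adjusted threshold in edgeR. At an unadjusted p under 0.05 there were 5 and 3, beside 30% of all tested genes. Of 23 genes of mitochondrial transcription and RNA processing, Tbrg4, a regulator of mitochondrial RNA stability, fell by 0.44, with 27.7 and 27.9 CPM against 39.1 and 36.2 CPM (SE 0.072, edgeR adjusted p = 0.0138, and 0.0693 without RANKL+Veh replicate 1).

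The 13 mRNAs made in mitochondria, which are what the mitoribosome translates, were high, with a median of 1342 FPKM. Their summed level was 28579 and 29309 CPM with RANKL+DI and 27600 and 28916 CPM with RANKL+Veh, with overlapping groups. None passed the adjusted threshold in edgeR, beside 14.8% of all tested genes, and 3 had an unadjusted p under 0.05, beside 30%. The log2 fold changes of the 13 had a median of -0.02 and a range of -0.12 to 0.10.

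Regulators and stress genes held 3 calls, 11.1% of the tested regulators and 20% of the stress genes, beside 14.8% of all tested genes. Myc, a transcription factor of growth and ribosome genes, was at 26.6 and 24.2 CPM with RANKL+DI and 51.5 and 41.2 CPM with RANKL+Veh, and fell by 0.87 (SE 0.12, edgeR adjusted p = 0.00778), as the single call among 9 tested regulators of mitochondrial biogenesis (median -0.19). Of 10 genes of the mitochondrial stress response, Atf5, a transcription factor of the unfolded protein response in mitochondria, rose by 0.72, from 44.6 and 40.4 CPM with RANKL+Veh to 66.5 and 74.0 CPM with RANKL+DI (SE 0.084, edgeR adjusted p = 0.00463). Hspd1, the mitochondrial chaperonin, fell by 0.35, with 237 and 233 CPM against 298 and 299 CPM (SE 0.037, edgeR adjusted p = 0.00356).

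**Figure D5:**
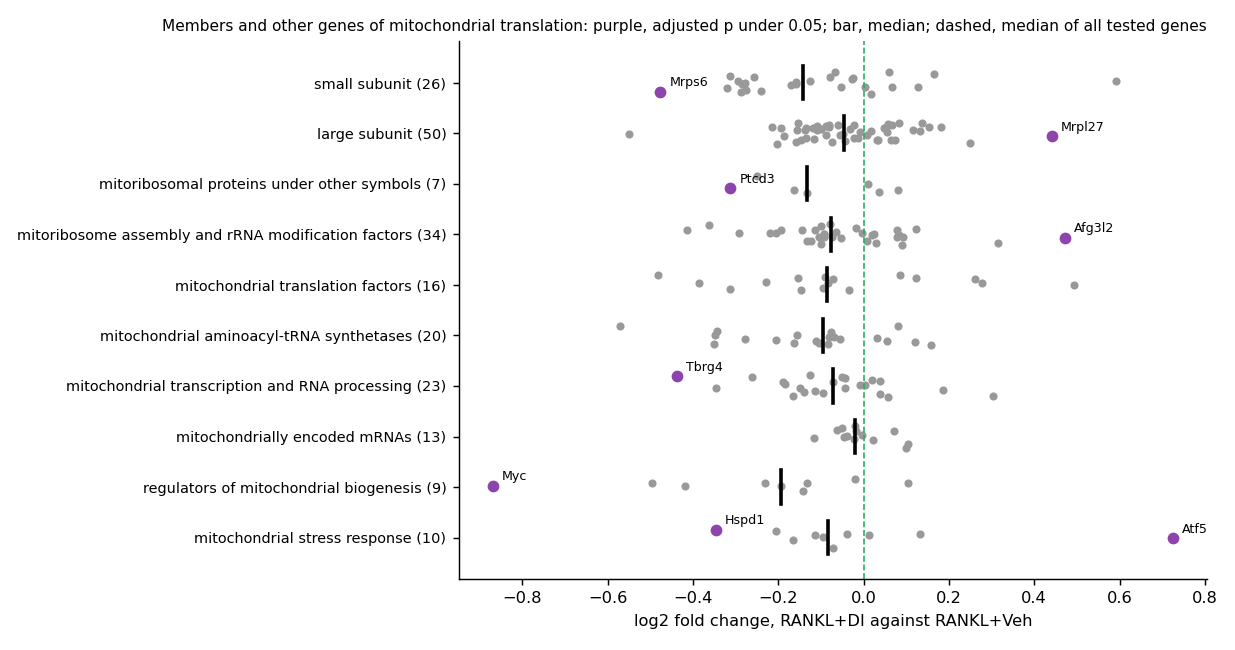
Log2 fold change (RANKL+DI against RANKL+Veh, x axis) of the members by subunit and of other genes of mitochondrial translation, 1 point a gene and the number of tested genes in brackets. Purple points passed an adjusted p of 0.05, bars mark medians and the dashed line the median of all tested genes, and all medians lie between -0.19 and -0.02.

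Of 2 other gene families in the same fit, none of 85 tested cytosolic ribosomal proteins rose and 14 fell (median -0.06), while 4 of 76 nuclear-encoded subunits of oxidative phosphorylation rose and 1 fell (median 0.08), or 16.5% and 6.58% beside the 14.8% of all tested genes. Their difference from the members was not tested.

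Annotation limits what single members can show. Exons of another gene overlapped 32 of the 77 members, on the same strand for 8 of them, and no source says whether reads were assigned by strand. The widest overlaps were those of Mrpl53, with 88.0% of its exon bases shared with the gene listed as Ccdc142 on the same strand, Mrps25, with 69.8% covered by Nr2c2 on the opposite strand, and Mrps34, with 63.4% covered by Mapk8ip3 on the opposite strand and 37.0% by Nme3 on the same strand. These neighbours had log2 fold changes of -0.03 (Ccdc142), 0.18 (Nr2c2), -0.12 (Mapk8ip3) and 0.41 (Nme3, SE 0.21, adjusted p = 0.253), none of which passed the threshold. Copies elsewhere in the genome that matched 20% or more of the transcript at 95% identity or more existed for 15 members, Mrpl27, Mrps10, Mrps21 and Mrps25 included, and their counts are uncertain to that extent.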

How the data were processed

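RNA was sequenced from BMMs treated for 24 h with RANKL and DI or DMSO, 2 libraries a group, grouped by their labels. The authors deposited unnormalized read counts for each gene in each library together with FPKM values. These FPKM values match the counts divided by depth and by a length per gene that the values imply. Libraries were made with a VAHTS mRNA-seq kit and read as pairs. The submitters' processing notes name the builds GRCm38 and mm10, and the aligner and counter are not given in the sources used here. A further deposited table, which adds the authors' annotation to the same values, was not used.

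Counts were fitted in R 4.3.3 with edgeR 4.0.16 (TMM factors, default filter on low counts, quasi-likelihood test, condition as the only term, Benjamini-Hochberg over 12590 genes, threshold 0.05). Standard errors came from the log2 fold change and F. The script was tested on simulated data. With 16085692 to 19403480 counts a library, 3 counts equal 0.160 to 0.180 CPM. Replicates of a group differed beyond sampling noise. Genes named were called members, the 5 extreme fold changes in each direction, the 3 highest and 3 lowest FPKM, members whose call changed when 1 library was left out, mitoribosomal proteins under other symbols and called genes of the other lists. Members and lists were chosen with earlier results of these data known. Positions and overlaps came from GENCODE M21, where all 34267 matched identifiers lay on the same chromosome and 58 of 77 members had the same ends, copies from BLAST 2.17.0, and promoters from RefSeq (GRCm38.p6). Alternatives were DESeq2 1.42.0 size factors and Wald test, library size only, no filter, a minimum of 10 counts, limma-voom (limma 3.58.1), a length trend removed, the replicate number as a block and each library left out.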

Additional observations from a re-analysis of the deposited data

How the results depend on the processing

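Scaling by library size only moved the median of all genes from 0.00 to -0.10 (log2). With it moved the medians of the members to -0.16, of the small subunit to -0.24 and of the large subunit to -0.15. The counts of members lower rose to 10, of members at an unadjusted p under 0.05 to 27 and of other genes lower to 27. Over all 12590 genes, 2480 were then called in either direction, against 1868 in the main fit. A change of scaling shifts all genes nearly alike, so it could not alter the 0.06 by which the members' median lay below that of all genes. With 1 library left out, the members' median minus that of all genes was between -0.091 and -0.035. Without the filter 2 members were lower (Mrps6, and Mrps25 at an edgeR adjusted p of 0.0472) and 4 other genes were higher. Over all 18290 genes of that fit, 2185 were called. The DESeq2 Wald test left 5 members at an unadjusted p under 0.05, and it called 1598 of all 12590 genes at the adjusted threshold. The share of all genes at an unadjusted p under 0.05 is not given for these alternatives. Leaving out 1 library gave 0 to 1 members higher, 0 to 2 lower and 6 to 12 at an unadjusted p under 0.05, 2 to 3 other genes higher and 2 to 5 lower, and medians of -0.09 to -0.03 for the members, -0.16 to -0.092 for the small subunit and -0.085 to -0.0038 for the large subunit, with a lone library assumed to vary like the other group. Calls over all genes then numbered 1087 to 1394 against 1868. Over its alternatives the adjusted p ranged from 0.00716 to 0.0637 for Mrps6, from 0.0115 to 0.0979 for Mrpl27 and from 0.0134 to 0.169 for Ptcd3, which was lost with the Wald test (0.0869) and the replicate block (0.0738).

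No label ties libraries of the same number, and their deviations from the group means had a correlation of -0.03 over all tested genes and 0.16 over members, so a pairing was not established. With the replicate number as a block, 1 member was higher and 1 lower, 10 had an unadjusted p under 0.05, and 1389 genes were called in the whole table. No called value changed sign, whereas Mrpl2, Mrpl42, Mrps17, Dap3, Chchd1 and Aurkaip1, none of them called, did under some alternative. Of the tested values of single named genes, 296 stayed on their side of the threshold, 9 gained a call and 14 lost one. Depth limits Mrpl53 most, with 33 to 67 counts. The causes of these shifts were not tested.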
